A study of Mus musculus with 3 samples.

Results

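Gpx1, Gpx3, Gpx4 and Gpx5, glutathione peroxidases chosen by symbol, were described over single cells of the mouse epididymis. They are 4 of the 24335 genes in the deposited matrix. The epididymis, a long duct that sperm pass through as they mature, came from untreated wild-type C57BL/6 mice aged 56 days. It was cut into caput (nearest the testis), corpus (the middle) and cauda (the storage end). From each of these 1 library of dissociated cells was made, after lysis of red blood cells. The number of animals behind a library is unstated in the labels.

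Glutathione peroxidases reduce hydrogen peroxide or lipid peroxides, mostly with glutathione as the electron donor. Most carry selenocysteine, an amino acid read from a UGA codon that otherwise ends translation, in the active site. Gpx1 works in the cytosol of most cells, and Gpx3 is secreted and is best known from plasma, where it comes largely from the kidney. Gpx4 reduces lipid peroxides in membranes, protects cells from ferroptosis (death by iron-dependent lipid oxidation) and, in sperm, becomes a structural protein of the mitochondrial capsule. Gpx5 is a secreted protein of the epididymis that reaches the sperm in the lumen and has cysteine in place of selenocysteine.

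The codons of the active site show this difference, and these stretches are printed because they are what separates Gpx5 from the other members. Each is 33 bases of coding sequence, 5′ to 3′, with the selenocysteine codon, or the codon at the same place, in capitals.
Gpx1: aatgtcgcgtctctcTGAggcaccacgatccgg
Gpx3: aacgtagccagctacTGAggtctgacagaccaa
Gpx4: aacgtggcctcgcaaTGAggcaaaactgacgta
Gpx5: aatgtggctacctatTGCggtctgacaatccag
Gpx6: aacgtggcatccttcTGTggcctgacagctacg
Gpx6, a close relative, is added for comparison. In Gpx1, Gpx3 and Gpx4 the capitals are the TGA that GENCODE M21 annotates as selenocysteine. Gpx5 has the cysteine codon TGC there, and mouse Gpx6 has TGT, the other cysteine codon. The Gpx5 and Gpx6 stretches were placed by their best in-frame match to Gpx3, to which Gpx5 was identical at 24 of 33 bases and Gpx6 at 21, and in all 3 genes the codon is number 73 of the reading frame. On GRCm38 the codon lies in exon 2 of Gpx3 (chr11:54907256-54907258, plus strand) and exon 2 of Gpx5 (chr13:21291336-21291338, minus strand). In Gpx1 it lies in exon 1 (chr9:108339451-108339453, plus strand), and in the longest coding transcript of Gpx4 in exon 3 (chr10:80054737-80054739, plus strand). Gpx5 and Gpx6 are neighbours on chromosome 13, 19393 bases apart, and 71.0% of their 663 coding bases are identical. The longest identical stretch was 35 bases between Gpx5 and Gpx6 and 40 bases between Gpx5 and Gpx3, so reads confined to such stretches could have been counted for either gene, and the treatment of such reads upstream is not stated. The counts also do not separate the cytosolic, mitochondrial and nuclear forms of Gpx4.

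Cells with at least 200 detected genes were kept, 4939 of the caput, 4831 of the corpus and 4785 of the cauda, with medians of 5077, 2654 and 2198 unique molecular identifiers (UMIs, counts of RNA molecules). Cells with over 20% mitochondrial UMIs made up 3.38% of the caput library, 28.5% of the corpus library and 25.9% of the cauda library. The libraries shared few cell barcodes, 14 between caput and corpus, 21 between caput and cauda and 14 between corpus and cauda. Cells were gated on marker genes, none of them a glutathione peroxidase, and are named "-like" because the names rest on markers alone. Principal-like cells, whose normal counterparts line the duct and secrete proteins into it, numbered 2561 in the caput, 2303 in the corpus and 1190 in the cauda, with medians of 7418, 2492 and 1393.5 UMIs. Cells that fitted more than 1 class numbered 463, 263 and 234, and cells that fitted no class 209, 661 and 1061. Levels are UMIs per 1000000 UMIs (CPM) over the summed cells of a region and class with at least 50 cells. Intervals are exact, at 95%, and cover counting error only. As each region had 1 library, nothing was tested, and region and library cannot be told apart.

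Over all cells, Gpx5 was highest in the caput and Gpx3 in the corpus and cauda. Gpx5 stood at 30473 CPM in the caput, 16.4 in the corpus and 47.9 in the cauda. Gpx3 stood at 205 CPM in the caput, 4334 in the corpus and 3959 in the cauda. The intracellular members varied less, with Gpx4 at 74.3, 145 and 150 CPM and Gpx1 at 472, 432 and 771 CPM in the same order of regions. A gene counted as past the size rule where its CPM differed at least 4-fold and the region with more of it held 100 UMIs or more. By this rule 2 of the 4 members, Gpx5 and Gpx3, differed between caput and corpus, a comparison in which 9.07% of 12668 genes did. The same 2 differed between caput and cauda, where 15.3% of 12818 genes did, and none differed between corpus and cauda, where 6.00% of 11208 genes did.

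Gpx5 in principal-like cells was at 40778 CPM in the caput (40703 to 40853), 19.4 in the corpus (17.0 to 22.1) and 125 in the cauda (115 to 135). The caput level was 2099-fold that of the corpus (1845 to 2399) and 326-fold that of the cauda (301 to 353). Of caput principal-like cells, 99.5% held at least 10 Gpx5 UMIs and 82.4% at least 100, against 82.9% to 93.6% and 0% to 4.83% in the other named caput classes, which had their own depths. Per cell, the lowest caput principal-like cell had 4.13 Gpx5 UMIs per 10000, the median 402 and the highest 1582. In the corpus and cauda the median principal-like cell had none.

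**Figure D1:**
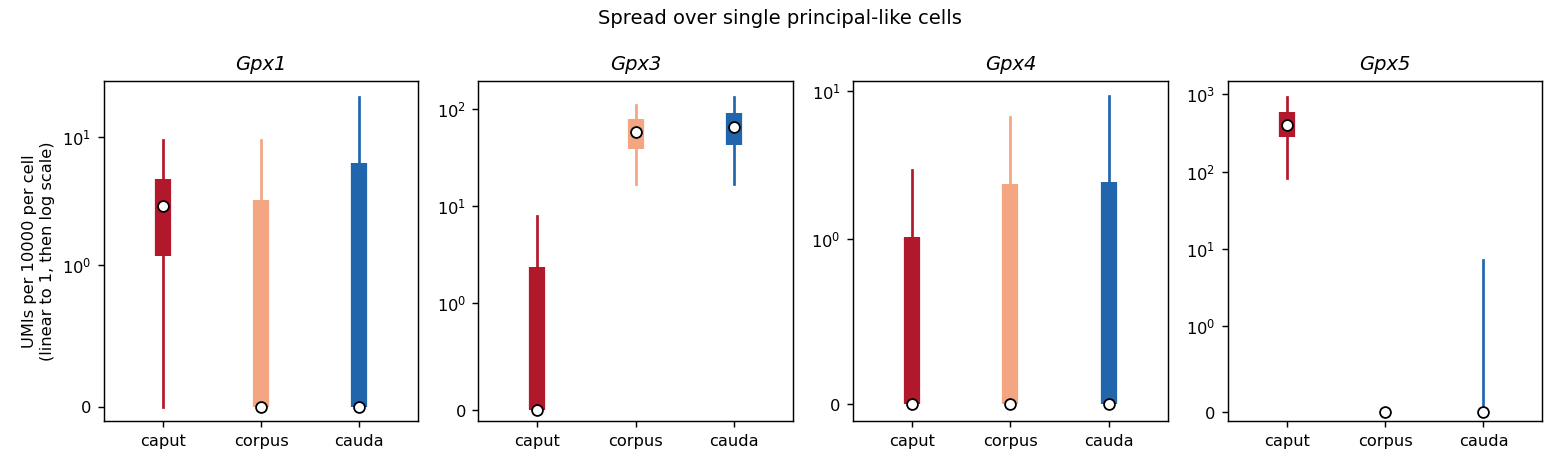
UMIs of Gpx1, Gpx3, Gpx4 and Gpx5 per 10000 UMIs of a single principal-like cell (vertical axis, linear to 1 and logarithmic above) in 2561 caput, 2303 corpus and 1190 cauda cells. White points are medians, thick bars run between the quartiles and thin lines between the lowest and highest 5% of cells; Gpx5 and Gpx3 separate the caput from the other regions, while the lines of Gpx1 and Gpx4 overlap.

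Gpx3 ran the other way in the same cells. It was at 175 CPM in the caput (170 to 180), 6248 in the corpus (6203 to 6293) and 8206 in the cauda (8126 to 8286). The ratio of caput to corpus was 0.0280 (0.0272 to 0.0288), a 35.7-fold lower level in the caput. The ratio of caput to cauda was 0.0213 (0.0207 to 0.0220), a 46.9-fold lower level. Corpus and cauda were much closer, with a ratio of 0.761 (0.752 to 0.771). The median cell held 0 Gpx3 UMIs per 10000 in the caput, 58.0 in the corpus and 65.5 in the cauda. The middle 90% of cells lay between 16.6 and 109 in the corpus and between 16.7 and 133 in the cauda, above 7.80, the value that 95% of caput cells did not exceed.

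Gpx4 and Gpx1 differed by less than 4-fold in every region comparison of principal-like cells. Gpx4 was at 71.0 CPM in the caput (67.9 to 74.2), 167 in the corpus (160 to 175) and 235 in the cauda (222 to 249). Its ratio was 0.424 for caput over corpus (0.399 to 0.452), 0.302 for caput over cauda (0.281 to 0.325) and 0.712 for corpus over cauda (0.662 to 0.766), so it shared the order of Gpx3 at a smaller size. Gpx1 was at 341 CPM in the caput (334 to 348), 182 in the corpus (175 to 190) and 282 in the cauda (267 to 297), lowest in the middle region. Its ratio was 1.87 for caput over corpus (1.79 to 1.96) and 0.647 for corpus over cauda (0.604 to 0.692). For caput over cauda it was 1.21 (1.15 to 1.28), and this direction turned when each cell had equal weight, with a log2 ratio of -0.31 against 0.28 from the sums.

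By the size rule, Gpx5 and Gpx3 differed between caput and corpus in principal-like cells, 2 of 4 members, against 11.6% of 10396 genes. The same 2 differed between caput and cauda, against 12.2% of 10239 genes. Between corpus and cauda only Gpx5, at 231 and 618 UMIs, passed, lower in the corpus with a ratio of 0.155 (0.133 to 0.181), against 5.32% of 7493 genes.

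**Figure D2:**
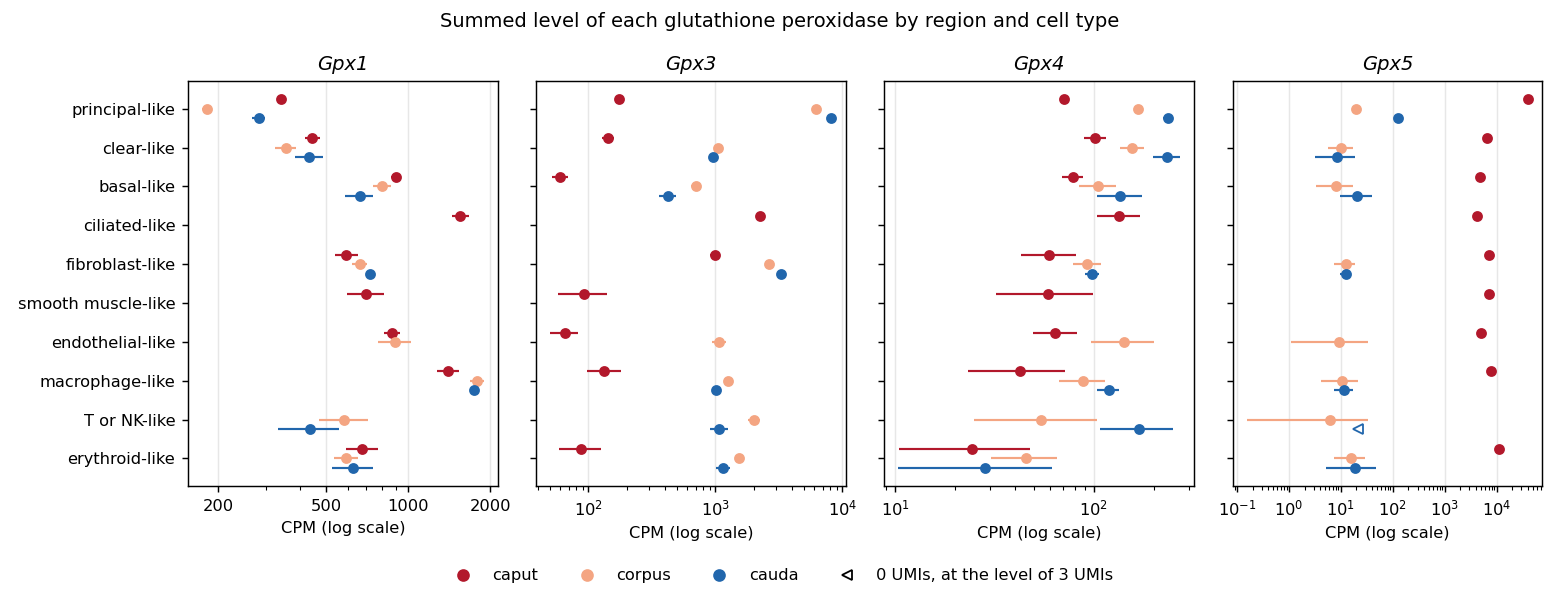
CPM of each gene (horizontal axis, log scale) over the summed cells of each region and cell type with at least 50 cells; horizontal bars are exact 95% counting intervals. Gpx5 was higher in every caput class than in any corpus or cauda class, Gpx3 was highest in corpus and cauda principal-like cells, Gpx1 was highest in macrophage-like cells of the corpus and cauda and in ciliated-like cells of the caput, and the open triangle marks T or NK-like cauda cells without a Gpx5 UMI.

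Gpx5 was found in every caput class, though at a lower level than in principal-like cells. Among the other named caput classes it ran from 4208 CPM in ciliated-like cells to 11006 CPM in erythroid-like cells, which is 10.3% to 27.0% of the principal-like level. At least 1 Gpx5 UMI was seen in 99.0% to 100% of the cells of each caput class, and in 99.2% of erythroid-like cells after each cell was thinned to 1000 UMIs. Red blood cells are not a known source of Gpx5, so a share of cells with a Gpx5 UMI in the caput does not separate cell types. Spag11b, a defensin-like gene of caput principal cells, moved with it. Gpx5 had 2.00 UMIs per Spag11b UMI in principal-like cells and 2.02 to 2.26 in the other named classes. Per UMI of Lcn8, a lipocalin of the same cells, Gpx5 had 3.18 UMIs in principal-like cells and 2.76 to 3.16 in the others. The 3 genes thus stood in nearly 1 ratio in every named caput class, while cells that fitted no class had 2.43 per Spag11b UMI and 4.08 per Lcn8 UMI, and those of mixed class 2.02 and 3.72.

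Outside the caput, Gpx5 in corpus principal-like cells was only a little above the other cells of that library. Its 19.4 CPM compares with 6.05 to 15.7 CPM in the other named corpus classes and the ratio to the sum of these was 1.77 (1.33 to 2.38). After thinning to 1000 UMIs, 1.76% of corpus principal-like cells had a Gpx5 UMI, against 0% to 2.39% in the other classes, and 4.73% before thinning. A few cells held much of it: the top 10 of 2303 corpus principal-like cells carried 48.9% of the Gpx5 UMIs, with up to 40 in 1 cell.

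Cauda principal-like cells differed from the rest of their library. Gpx5 stood at 125 CPM there and at 0 to 20.7 CPM in the other named cauda classes, T or NK-like cells having 0 UMIs in 54 cells, which at 3 UMIs allows up to 20.99 CPM (exact upper limit 25.8). A Gpx5 UMI was seen in 220 of 1190 cauda principal-like cells (18.5%), and after thinning to 1000 UMIs in 8.94% of 850 cells, against 0% to 3.57% of the cells of the other classes. The median depth of the 220 cells was 6000 UMIs, against 1393.5 for all cauda principal-like cells. In cauda principal-like cells the ratio of Gpx5 to other caput genes was not that of the caput. They had 12.1 Gpx5 UMIs per Spag11b UMI (51 Spag11b UMIs) and 22.9 per Lcn8 UMI (27 Lcn8 UMIs). Caput principal-like cells had 2.00 and 3.18, and corpus principal-like cells 5.37 and 3.55. Cauda basal-like, fibroblast-like and macrophage-like cells had 2.67 to 9 per Spag11b UMI, on 1 to 17 Spag11b UMIs, and 2.15 to 2.67 per Lcn8 UMI. The other named cauda classes of at least 50 cells had no Spag11b UMI. Of the 220 cells, 195 had no UMI of Spag11b or Lcn8, and 5 carried a barcode also found in another library.

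**Figure D3:**
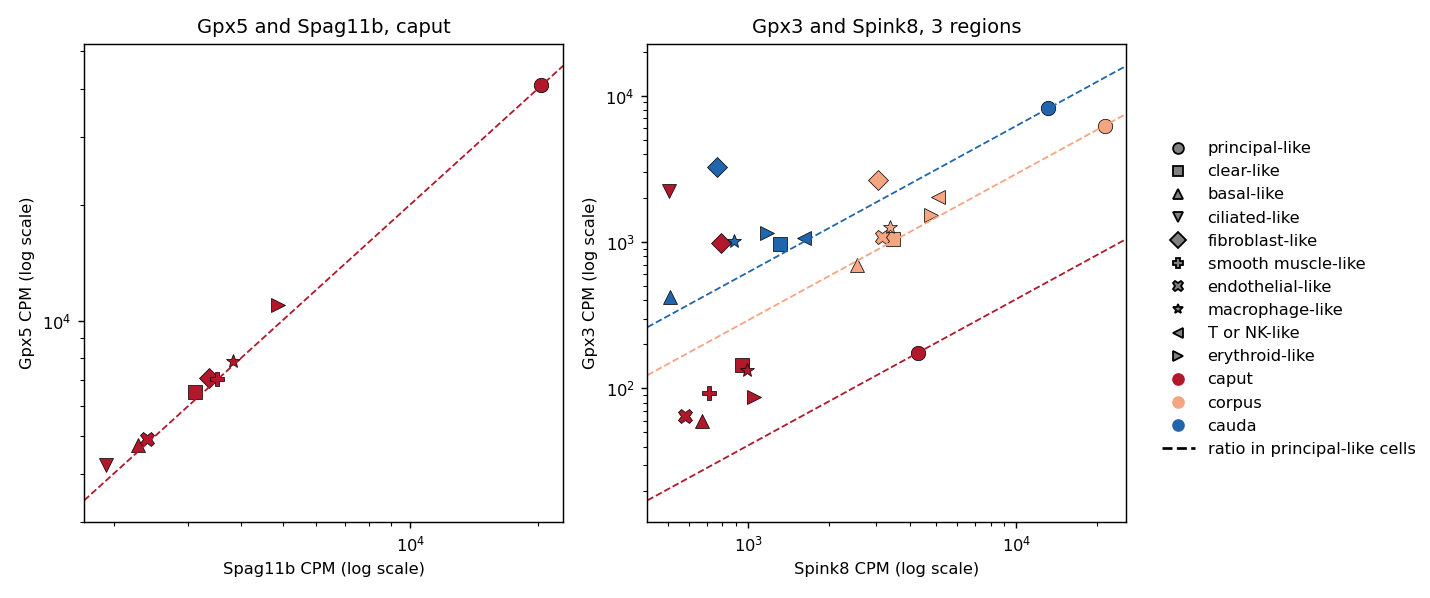
Left, Gpx5 CPM against Spag11b CPM in each caput class; right, Gpx3 CPM against Spink8 CPM, a protease inhibitor gene of principal cells, in each class of the 3 regions (log axes, each symbol 1 class, colours for regions). Dashed lines give the ratio in principal-like cells: caput Gpx5 stays near its line in every class, while Gpx3 lies above its line in every other class except corpus basal-like cells. Within the caput it lies farthest above in ciliated-like and then fibroblast-like cells, and within the corpus and within the cauda in fibroblast-like cells. Spag11b and Spink8 were markers of the principal gate.

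Gpx3 in cells other than principal-like ones was set beside Spink8, as Gpx5 was beside Spag11b. Spink8, Spag11b and Lcn8 were markers of the principal gate, while Gpx3 and Gpx5 were not. What the gate did to these ratios was not tested. In corpus clear-like, basal-like, endothelial-like, macrophage-like and erythroid-like cells it stood between 700 and 1535 CPM, 11.2% to 24.6% of the principal-like level; with classes from clusters, clear-like and macrophage-like cells had 1629 and 1888 CPM. In these classes it had 0.276 to 0.377 UMIs per UMI of Spink8, a Kazal-type protease inhibitor gene of principal cells, beside 0.293 in principal-like cells. The 65 corpus T or NK-like cells had 2022 CPM and 0.398 UMIs per Spink8 UMI. The ratio varied more in the other regions: it was 0.0836 to 0.152 in caput clear-like, basal-like, smooth muscle-like, endothelial-like, macrophage-like and erythroid-like cells, against 0.0408 in principal-like cells. In cauda clear-like, basal-like, macrophage-like, T or NK-like and erythroid-like cells it was 0.665 to 1.15, against 0.624. Fibroblast-like cells, the matrix-making cells around the duct, had higher ratios than these in each region. Their Gpx3 was at 985 CPM in the caput (912 to 1062), 2653 in the corpus (2575 to 2734) and 3263 in the cauda (3217 to 3310). Gpx3 per Spink8 UMI was 1.25, 0.875 and 4.26 in fibroblast-like cells of the caput, corpus and cauda, against 0.0408, 0.293 and 0.624 in principal-like cells. In the caput, fibroblast-like cells therefore had more Gpx3 than principal-like cells, 563% of their level.

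Ciliated-like caput cells (69 cells, gated on Foxj1 and other genes of motile cilia) had the highest caput level of Gpx3, 2228 CPM (2097 to 2364), against 175 in caput principal-like cells. A Gpx3 UMI was seen in all 69, and in 76.8% after thinning to 1000 UMIs. In basal-like caput cells, which lie at the base of the same epithelium, Gpx3 stood at 59.9 CPM (51.8 to 68.8) and in clear-like cells, which acidify the lumen, at 143 (129 to 160). Macrophage-like cells (133 CPM) had an interval that overlapped that of clear-like cells, and endothelial-like cells (65.0 CPM) one that overlapped that of basal-like cells at the low end. Ciliated-like cells numbered fewer than 50 in the corpus and cauda and were not compared across regions.

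Gpx1 was highest in macrophage-like cells in the corpus and cauda, and second to ciliated-like cells in the caput. Macrophage-like cells had 1394 CPM in the caput (1270 to 1528), 1788 in the corpus (1688 to 1892) and 1737 in the cauda (1680 to 1794). The corpus and cauda intervals overlapped. Ciliated-like caput cells had 1552 CPM (1443 to 1667), an interval that overlapped that of caput macrophage-like cells. Basal-like cells came next among the epithelial classes, at 898 CPM in the caput (866 to 931), 802 in the corpus (743 to 864) and 661 in the cauda (587 to 742). Fibroblast-like cells had 592, 662 and 724 CPM, and clear-like cells 444, 355 and 432 CPM. Principal-like cells were lowest in each region, at 341, 182 and 282 CPM. After thinning to 1000 UMIs, a Gpx1 UMI was seen in 72.1%, 69.3% and 75.5% of macrophage-like cells and in 27.4%, 16.4% and 31.8% of principal-like cells. The caput value for macrophage-like cells rested on 104 gated cells: with classes taken from clusters it was 742 CPM in 194 cells, in which Gpx5 reached 22065 CPM.

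Gpx4 gave an order of cell types in which most neighbours had overlapping intervals, the highest pair in each region among them. Principal-like and clear-like cells had overlapping intervals in the corpus, at 167 (160 to 175) and 156 CPM (136 to 179), and in the cauda, at 235 (222 to 249) and 233 CPM (199 to 272). In the caput, ciliated-like cells (134 CPM, 103 to 171) and clear-like cells (102 CPM, 89.5 to 116) were above principal-like cells (71.0 CPM, 67.9 to 74.2). Erythroid-like cells were lowest in each region, at 24.3 CPM in the caput (10.5 to 47.8), 45.6 in the corpus (30.5 to 65.4) and 28.3 in the cauda (10.4 to 61.7), and only in the cauda did their interval lie apart from that of the next class. Every named class with 50 or more cells in each of these regions had less Gpx4 in the caput than in the corpus, although the interval for erythroid-like cells (0.210 to 1.19) included equal levels. Germ-like cells, gated on sperm transcripts such as Prm1 and Prm2, had Gpx4 at 348 CPM in 8 caput cells (213 to 538), 684 in 30 corpus cells (501 to 912) and 411 in 24 cauda cells (219 to 702). These are too few cells to compare by the rule of 50.

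Caput principal-like cells were not alike, and the members split them differently. Each cell was put with the set of segment genes it expressed most, scaled to the 95th percentile of that set. Gpx5 was highest in the 617 cells led by the beta-defensins Defb47 and Defb18, at 60024 CPM (59846 to 60203). It stood at 35618 CPM in 518 cells led by Etv4, Etv5, Dusp6 and Ros1, genes of receptor tyrosine kinase signalling in the first segment, and at 36249 CPM in 975 cells led by Cst12 and Adam28. In the 451 cells led by Lcn5 and Rnase13 it was lowest, at 28137 CPM (27997 to 28278). Gpx3 was at 82.7, 46.7, 161 and 515 CPM in cells led by Etv4 and its partners, by Cst12 and Adam28, by Defb47 and Defb18, and by Lcn5 and Rnase13. Gpx1 took a similar order, at 305, 266, 353 and 498 CPM. Gpx4 lay between 62.0 and 81.2 CPM in the 4 groups. The groups share 1 library, and their median depths were 5930, 7402, 8089 and 8824 UMIs. Cst12, Adam28, Lcn5 and Rnase13 were also markers of the principal gate.

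**Figure D4:**
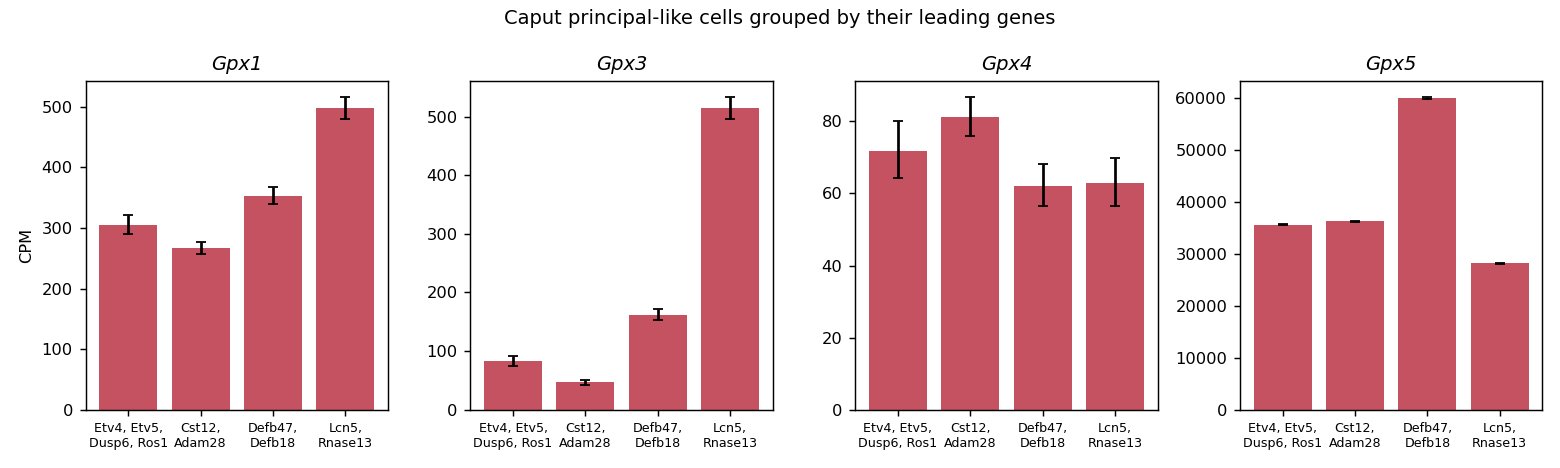
CPM of each member (vertical axes, from 0) in caput principal-like cells grouped by the segment genes named under the bars, with exact 95% counting intervals. Gpx5 peaked in cells led by Defb47 and Defb18, at 60024 CPM, and Gpx3 in cells led by Lcn5 and Rnase13, at 515 CPM.

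Cell by cell, Gpx5 went closely with Spag11b and at most weakly with the lipocalins compared. Over 2561 caput principal-like cells of 1 library, Spearman's rho of the UMIs per 10000 was 0.86 for Gpx5 and Spag11b, and 0.54 for Gpx5 and Defb20, a beta-defensin. It was -0.01 for Lcn8, -0.11 for Lcn5, 0.02 for Lcn9, 0.15 for Lcn2 and -0.08 for Etv5. In the shallower 1281 cells rho with Spag11b was 0.86, as in the deeper 1280. Ranked by Spag11b and divided into 4 equal groups, low to high, the cells had Gpx5 at 18805, 32784, 44130 and 70428 CPM, and the groups had median depths of 7194, 7383, 8075 and 7191 UMIs. Gpx3 followed other genes in the same cells, with a rho of -0.55 with Lcn8 and 0.44 with Lcn5. In 4 such groups by Lcn8, low to high, Gpx3 was at 410, 165, 46.0 and 23.4 CPM. These groups were less even in depth, with medians of 10077, 4070, 8862 and 7396 UMIs. Gpx3 was also the most uneven member there: the 256 cells with most Gpx3 UMIs carried 66.9% of them, against 32.6% for Gpx5, 40.5% for Gpx1 and 49.0% for Gpx4. Gpx5 and Gpx3 themselves had a rho of -0.09. These values describe cells of 1 library that share each cell's total as denominator. Spag11b, Defb20, Lcn8, Lcn5 and Lcn9 were also markers of the gate that chose these cells.

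The genes whose levels were most like a member's were sought over 24 sums of region and cell type, with Pearson's r of log2(CPM + 1) over genes with at least 100 UMIs. For Gpx5 they were Spag11b (r = 0.98), Lcn9, Defb18, Cst12 and Cst8, which stood at 20375, 14362, 3071, 1805 and 7765 CPM in caput principal-like cells and at or under 10.3 CPM in those of the cauda. For Gpx3 they were Defb38 (0.83), Ly6f, Defb11, Ltf and Prlr, each highest in corpus or cauda principal-like cells. For Gpx1 they were Mpp1 (0.87), Zfp703, Sirpa, Blvrb and Tcirg1, each highest in macrophage-like cells. For Gpx4 they were 4 clone-named transcripts and Mrpl12 (0.90), a protein of the mitochondrial ribosome. Spag11b, Lcn9, Cst12, Cst8, Defb38 and Ly6f were also markers of the principal gate, and sums of 1 region share a library.

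Of the remaining glutathione peroxidases, Gpx6, Gpx7 and Gpx8 had more UMIs per 1000000 in the caput than in the corpus or cauda in principal-like cells, as Gpx5 did. Over all cells, though, Gpx7 was highest in the cauda, at 34.4, 28.5 and 102 CPM in caput, corpus and cauda. Fibroblast-like cells had 171, 216 and 232 CPM of it. Gpx6, the neighbour of Gpx5, stood at 45.8 CPM in the caput, 0.336 in the corpus (4 UMIs) and 3.03 in the cauda (15 UMIs), and its caput level was 136-fold that of the corpus (53.0 to 500.2) and 15.1-fold that of the cauda (9.11 to 27.0). Within caput principal-like cells Gpx5 and Gpx6 had a rho of 0.04, and Gpx6 averaged less than 1 UMI per cell, 1270 UMIs in 2561 cells. By segment genes, Gpx6 was highest in the group where Gpx5 was, the cells led by Defb47 and Defb18. It was at 62.2 CPM there and at 39.4 to 41.5 CPM in the other groups. Whether reads from stretches identical in Gpx5 add to the Gpx6 counts was not tested. Gpx7, a peroxidase of the endoplasmic reticulum with little activity on glutathione, was at 34.2, 7.23 and 23.3 CPM in caput, corpus and cauda, and passed the size rule for caput over corpus at 4.72-fold (3.79 to 5.96). Gpx8, a membrane protein of the same compartment, was at 107, 81.9 and 29.3 CPM and did not pass it. Gpx2, best known from the gut epithelium, had 2, 5 and 0 UMIs in principal-like cells and is near the limit of detection. In basal-like cells it had 14 UMIs in the caput (4.28 CPM), 17 in the corpus (19.8 CPM) and none in the cauda.

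Glutathione itself is made and recycled by other enzymes. Of 19 genes of glutathione synthesis and recycling with at least 20 UMIs, the median log2 ratio was 0.15 for caput over corpus and 0.40 for caput over cauda, beside 0.03 and 0.07 over all genes. Of 16 tested, Ggct and Ggt7 were past the size rule with more in the caput than in the corpus, and Ggt7 and Ggt1 with more in the caput than in the cauda. These counts of 2 are near the shares over all genes, 11.6% and 12.2%. Gclm, the modifier subunit of the enzyme that makes the glutathione precursor, was at 335, 317 and 169 CPM in caput, corpus and cauda. Ggt7, of the gamma-glutamyl transferase family, was at 41.9, 0.757 and 1.82 CPM, and its caput level was 55.3-fold that of the corpus (29.1 to 121). Ggct, which degrades gamma-glutamyl dipeptides, was at 115, 22.8 and 71.4 CPM.

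Other peroxide-removing enzymes gave values both ways. The list of peroxiredoxins, thioredoxins, catalase and superoxide dismutases had 16 members, whose log2 ratios had medians of -0.11 (caput over corpus) and -0.22 (caput over cauda). Prdx1 and Prdx6, peroxiredoxins of the cytosol, were measured at 1358 and 746 CPM for the caput, 1248 and 579 for the corpus and 1091 and 266 for the cauda. Of 15 tested, 2 passed the size rule in each of these comparisons, a share near the 11.6% and 12.2% over all genes. Srxn1, which repairs oxidised peroxiredoxins, was lower in the caput, at 10.5 CPM against 51.5 in the corpus and 46.5 in the cauda. Txnrd3, a selenoprotein thioredoxin reductase best known from the testis, was higher in the caput, at 21.7 CPM against 3.28 in the corpus and 2.43 in the cauda.

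Of 11 tested genes that supply selenium and insert selenocysteine, only Lrp2 passed the size rule between caput and corpus, where 11.6% of all genes did. Lrp2 encodes megalin, an endocytic receptor known to take up selenoprotein P in the kidney, and stood at 6.06 CPM in the caput, 139 in the corpus and 257 in the cauda. Its ratio of caput to corpus was 0.0436 (0.0370 to 0.0511), the direction of Gpx3. For caput over cauda Lrp2 and Sepsecs, an enzyme of selenocysteine synthesis, passed, of 11 tested, beside 12.2% of all genes. Sepsecs was at 5.15 against 1.21 CPM, the cauda value being 6 UMIs. Sepp1, which encodes selenoprotein P, was at 20.2, 14.5 and 37.8 CPM. Of 8 tested selenoproteins other than glutathione peroxidases, none differed 4-fold between caput and corpus. Selm was lower in the caput (6.70 CPM) and the corpus (7.82 CPM) than in the cauda (34.0 CPM). It was the only 1 of 8 tested past the rule in either comparison, beside 12.2% and 5.32% of all genes.

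Sources of peroxide and disulfide oxidases gave values both ways. Ero1lb, an oxidase of the endoplasmic reticulum, stood at 25.3, 6.22 and 9.91 CPM in caput, corpus and cauda and passed the size rule for caput over corpus (4.07-fold, 3.20 to 5.24), 1 of 8 tested, beside 11.6% of all genes. Qsox1, a secreted sulfhydryl oxidase that makes hydrogen peroxide, was at 26.3, 83.4 and 172 CPM and passed it for caput over cauda with a ratio of 0.153. Qsox2 was at 10.5, 13.9 and 2.43 CPM and passed it, higher, for both caput and corpus over cauda. No other gene passed there, of 8 tested for caput over cauda and 7 for corpus over cauda. The shares over all genes were 12.2% and 5.32%.

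Among 9 regulators, Etv5, Etv4, Dusp6 and Cebpb were past the size rule with more in the caput than in the corpus, and Nqo1 with less. That is 5 of 9, beside 11.6% of all genes, on a list that was chosen with results known. Etv5, an ETS factor of the initial segment, stood at 82.2, 1.35 and 4.25 CPM in caput, corpus and cauda. Nfe2l2, which encodes Nrf2, was at 84.2, 115 and 111 CPM. Nqo1, a target of Nrf2, peaked in the corpus, at 11.9, 63.3 and 8.70 CPM. Of the genes of lipid peroxidation and ferroptosis, Slc3a2, a subunit of the cystine importer, was at 360, 93.5 and 75.7 CPM. Acsl4, which activates polyunsaturated fatty acids for entry into phospholipids, was at 92.3, 186 and 223 CPM. Alox5, a lipoxygenase, was 5.00-fold higher in the caput than in the corpus (2.95 to 9.13) and the only 1 of 8 tested past the rule there, beside the same 11.6%. For caput over cauda Slc3a2 and Alox5 passed it, of 8 tested, beside 12.2% of all genes.

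**Figure D5:**
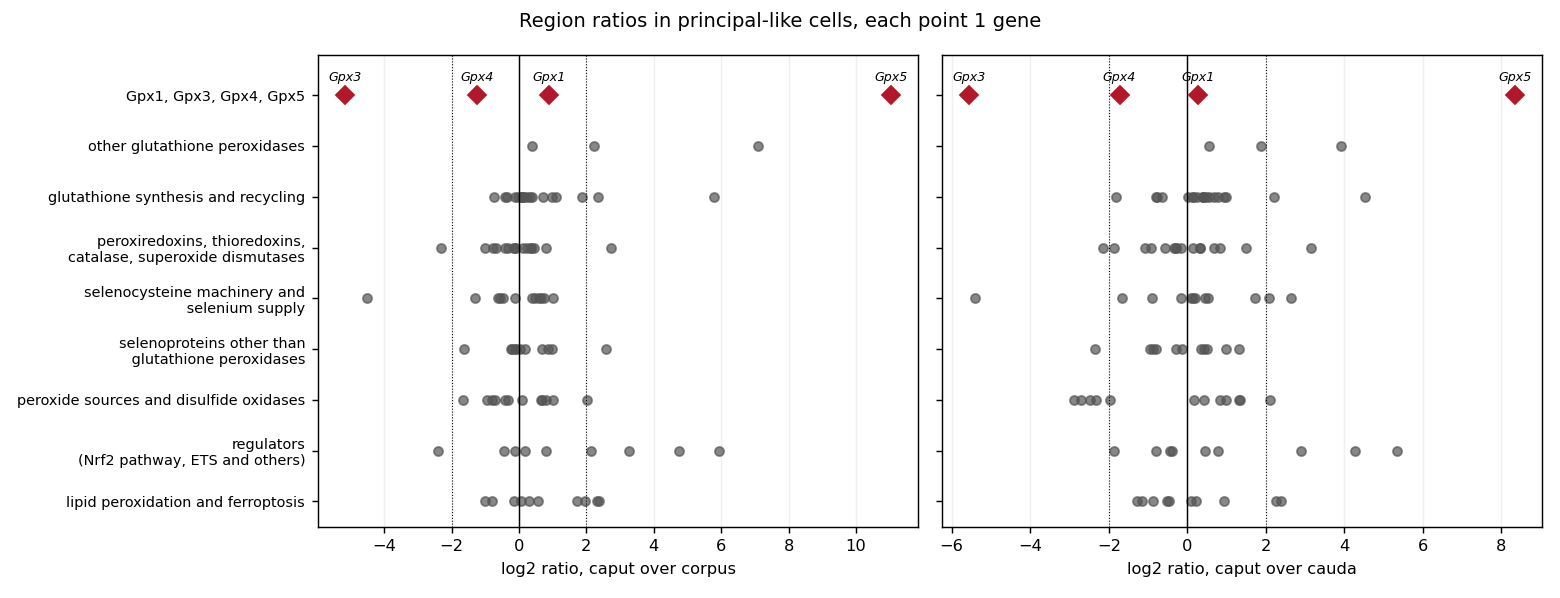
Log2 ratios of caput over corpus (left) and caput over cauda (right) in principal-like cells, each point 1 gene that had 20 UMIs or more over the pair of regions; the top row holds the 4 members and dotted lines mark 4-fold. Gpx5 lies farthest to the right and Gpx3 farthest to the left of the genes drawn in both panels, at 11.04 and -5.16 for caput over corpus.

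The 300 bases around the annotated starts of Gpx5 and Gpx3 are shown because these members had opposite region patterns. Both are RefSeq sequences of GRCm38.p6, 250 bases before the start and 50 after, 5′ to 3′ on the strand of the gene, with the motifs searched in capitals.
Gpx5, chr13:21292637-21292936, minus strand: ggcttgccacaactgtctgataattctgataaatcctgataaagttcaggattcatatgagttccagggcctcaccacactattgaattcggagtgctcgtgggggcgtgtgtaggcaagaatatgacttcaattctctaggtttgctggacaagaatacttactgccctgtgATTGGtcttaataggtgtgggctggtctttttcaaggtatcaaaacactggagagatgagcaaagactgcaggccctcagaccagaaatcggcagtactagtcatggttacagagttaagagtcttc
Gpx3, chr11:54902604-54902903, plus strand: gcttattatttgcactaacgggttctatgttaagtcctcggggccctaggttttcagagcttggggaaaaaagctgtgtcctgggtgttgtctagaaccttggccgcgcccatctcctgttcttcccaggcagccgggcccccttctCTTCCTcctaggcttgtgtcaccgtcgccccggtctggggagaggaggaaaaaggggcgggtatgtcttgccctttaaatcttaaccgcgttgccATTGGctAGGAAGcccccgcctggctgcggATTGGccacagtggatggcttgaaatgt
The motifs, sought on both strands, were AGGAAG (an ETS site), TATAAA (the TATA box) and ATTGG (the inverted CCAAT box). Among 32851 windows of the same length, 35.4% held AGGAAG, 13.6% TATAAA and 37.4% ATTGG. The Gpx5 window held 1 ATTGG, 77 bases before the start, and no other match. The Gpx3 window held 2 AGGAAG and 2 ATTGG, counted on both strands, and no TATAAA. A match of letters describes the window and says nothing of binding, and the letters missing from a window may stand outside it.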

How the data were processed

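UMI counts per gene and cell were deposited by the authors as 1 matrix of 24335 genes and 14845 cells whose columns name the region. Per the submitters' processing notes, STAR 2.7.3a, UMI-tools (of unstated version) and GRCm38.p6 were used; how cells were called is not stated, and no doublet caller was run, cells of mixed class being kept apart. A cell was gated to the 1 of 17 classes it scored highest for, if it had at least 3 of the class's markers and at least 20% of the mean marker share of the 50 top cells of its library. It was mixed where another class scored at least 50% of that. Near this limit (a score of 0.15 to 0.25) lay 249 and 238 caput, 343 and 279 corpus and 260 and 216 cauda cells below and above it for the principal list. Counts were summed and scaled to CPM, with exact Poisson, conditional binomial and Clopper-Pearson intervals; a count of 0 was set to 3 in a ratio. The 4 members, the 8 gene lists and the segment gene sets were chosen with earlier results of these data known. Text names the members and other Gpx genes. List genes named were drawn from up to 4 genes of each list by summed UMIs and those past the size rule in principal-like cells. Not every such gene is named, and Hmox1 and Alox12, past the rule for corpus over cauda only, are not described. A member of the list of regulators and a motif are not reported here. The size rule was tried on simulated sums with Poisson counting error only, which cannot show how libraries or animals vary. Alternatives used edgeR 4.0.16 (TMM) and igraph 0.11.9. Python 3.11.15 and scipy 1.17.1 were used.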

Additional observations from a re-analysis of the deposited data

Results flagged for a closer look

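Each value here is a log2 ratio of 1 library over another in 1 cell type, and was singled out because the same gene pointed the other way in a second cell type by the counting intervals. The differences between cell types were not tested. For Gpx1, caput over corpus was 0.91 in principal-like cells and -0.36 in macrophage-like cells, and caput over cauda was 0.44 in basal-like cells and -0.32 in macrophage-like cells. For corpus over cauda, Gpx1 was at 0.28 in basal-like cells and -0.63 in principal-like cells. Gpx3, for the same regions, was at 0.92 in T or NK-like cells (65 corpus and 54 cauda cells) and -0.39 in principal-like cells. Beside this, Spink8, a gene of principal cells, was in corpus T or NK-like cells at 23.8% of its level in corpus principal-like cells, and in those of the cauda at 12.2%; its part in the Gpx3 value was not tested.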

How the results depend on the processing

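In 82 of 84 alternative values the count of members past the size rule was the same or went from 2 to 3. The change from 2 to 3 came under a 2-fold rule, where Gpx4 also passed, lower in the caput. It did so in principal-like cells for caput over corpus (0.424) and caput over cauda (0.302), and in all cells for caput over cauda (0.496). Under a 2-fold rule the count for corpus over cauda in all cells was 1 in place of 0 (Gpx5), and under a 10-fold rule that for principal-like cells was 0 in place of 1. No called log2 ratio changed sign: in principal-like cells Gpx5 ranged from 10.15 to 11.25 for caput over corpus and Gpx3 from -5.34 to -5.08, and for caput over cauda Gpx5 ranged from 8.004 to 8.48 and Gpx3 from -5.74 to -5.29. Gpx1, not past the rule, changed sign for caput over cauda in principal-like cells, from a log2 ratio of 0.28 to -0.31 with each cell of equal weight, -0.36 with cells thinned to 1000 UMIs and -0.06 without the 5% of cells with most UMIs, and the cause was not tested. In all cells, Gpx1 for caput over corpus (0.13) and Gpx4 for corpus over cauda (-0.05) also changed sign, within -0.05 to 0.17 and -0.05 to 0.08. Alternative log2 ratios of the members lay outside the main counting interval 131 times and inside it 175 times. Levels by cell type lay outside it 79 times and inside it 361 times. Shares of cells with a UMI, at other numbers of UMIs kept, lay outside it 47 times and inside it 1 time. Leaving out cells with near or shared barcodes, gates at 10% and 30% and CPM without Gpx5 were chosen after seeing the data. With classes from clusters, caput Gpx5 outside principal-like cells was up to 2.81-fold its gated level, in macrophage-like cells. With a pseudocount of 10 CPM, 4, 2, 4 and 3 of the 5 most alike genes of Gpx1, Gpx3, Gpx4 and Gpx5 were shared with the main list. No paired analysis was possible because each region had 1 library. Depth limits Gpx2, Gpx6 and Gpx5 outside the caput, and shares of cells with a UMI rose with the number of UMIs kept.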
